A study of Mus musculus with 6 samples.

Results

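Pdk4, Ucp3, Ucp2, Angptl4, Cpt1a, Acot1, Plin2 and Plin5 are genes that the heart uses when it turns from glucose to fatty acids, and all 8 were found among the 52550 genes of the deposited expression table by their Ensembl identifiers. RNA was sequenced from 6 hearts of C57BL/6 mice, 3 lacking a long noncoding RNA named lncRNA-DRR in the labels (lncRNA-DRR-/-, KO) and 3 wild type (WT). All 6 mice had the left anterior descending coronary artery tied permanently at 8 weeks of age, and each heart was taken at 10 weeks, 2 weeks after infarction, so KO and WT are compared only after infarction. The hearts were removed and frozen, and the labels separate neither infarct from remote muscle nor one cell type from another; no unoperated, sham-operated or fasted heart was analysed here. The labels do not say where lncRNA-DRR lies or how it was deleted, and its own level was not analysed here. The 8 genes were chosen by pathway with earlier KO against WT differences of their FPKM values in these same hearts known. Their KO and WT values are therefore given as a description, and no test of them is used as support.

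Values are FPKM, fragments scaled to transcript length and library size, so levels of different genes can be set side by side. The libraries held about 5189000 to 9398000 fragments each, an estimate from the FPKM that a single fragment is worth at a given transcript length. KO replicate 3 differed from the other hearts in its sex-linked genes, with Xist, the RNA of the inactive X chromosome, at 25.6 FPKM against 0.0742 FPKM or less, so the 8 genes are also given without that heart. The 10 cardiomyocyte markers were all present, and their summed FPKM was 9318, 7112 and 10700 in the KO hearts and 8891, 9991 and 11320 in the WT hearts. All 10 had a log2 difference (KO minus WT) below 0, with a median of -0.18. Ttn and Mybpc3 were lower in every KO heart than in any WT heart, as were 7.5% of all tested genes. None of the 10 was called by limma, and 2 had an unadjusted limma p under 0.05, as did 8.47% of all tested genes. The part of this in the values of the 8 genes was not tested. In a whole heart, fewer cells of a type and less RNA per cell cannot be told apart.

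Peroxisome proliferator-activated receptors (PPARs) are nuclear receptors that bind fatty acids and, paired with a retinoid X receptor (RXR), raise the transcription of genes that take up, store and burn fat. PPARα and PPARδ are the main forms in heart muscle. During fasting, fatty acids released from fat tissue act through these receptors, while falling insulin frees FoxO factors and rising glucocorticoids act through their own receptor; Pdk4 and Angptl4 are known to answer all of these inputs. PDK4 is the best known of the products: it phosphorylates pyruvate dehydrogenase, which closes the entry of glucose carbon into the citric acid cycle.

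The stretch just upstream of the start site was compared for the genes in the RefSeq promoter table (build GRCm38.p6), which held 7 of the 8; the entry missing was that of Angptl4. The 250 bases before the start are printed for Pdk4, for Ucp3, the gene nearest to it in its values, for Ucp2, the neighbour of Ucp3, and for Plin2, whose KO and WT values overlapped. Capitals mark the PPAR core hexamer AGGTCA or its reverse complement TGACCT.
Pdk4, minus strand, chr6:5496279-5496528: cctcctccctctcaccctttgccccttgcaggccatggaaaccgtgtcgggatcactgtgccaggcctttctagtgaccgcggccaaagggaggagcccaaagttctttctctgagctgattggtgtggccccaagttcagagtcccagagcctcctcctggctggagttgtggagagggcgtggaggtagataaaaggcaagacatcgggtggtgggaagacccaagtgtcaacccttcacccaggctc
Ucp3, plus strand, chr7:100472741-100472990: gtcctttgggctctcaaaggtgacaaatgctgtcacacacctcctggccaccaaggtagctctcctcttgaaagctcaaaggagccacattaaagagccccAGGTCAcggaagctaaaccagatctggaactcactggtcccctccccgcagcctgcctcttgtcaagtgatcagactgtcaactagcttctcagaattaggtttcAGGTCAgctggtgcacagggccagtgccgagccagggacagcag
Ucp2, plus strand, chr7:100493108-100493357: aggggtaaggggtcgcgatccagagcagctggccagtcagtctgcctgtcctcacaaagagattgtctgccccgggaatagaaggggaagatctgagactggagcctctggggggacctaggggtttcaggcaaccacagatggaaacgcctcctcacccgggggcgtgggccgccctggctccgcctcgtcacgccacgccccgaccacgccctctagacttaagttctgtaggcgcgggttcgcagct
Plin2, minus strand, chr4:86670060-86670309: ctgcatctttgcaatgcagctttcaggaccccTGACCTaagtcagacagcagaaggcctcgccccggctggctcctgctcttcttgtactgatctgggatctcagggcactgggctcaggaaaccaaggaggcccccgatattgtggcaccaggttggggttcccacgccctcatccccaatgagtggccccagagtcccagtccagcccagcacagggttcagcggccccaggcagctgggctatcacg

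Of these windows, that of Ucp3 held the hexamer at 2 places, beginning 149 and 44 bases before the start, and that of Plin2 held 1, beginning 218 bases before it. Cpt1a had 1 hexamer and Plin5 had 1 before the more upstream of its 2 starts. None was found in the windows of Pdk4, Ucp2 and Acot1. Searched on both strands, the hexamer stood in 14.0% of the 32536 distinct upstream windows of the table, so its presence sets no gene apart. The direct repeat of AGGNCA with 1 base between the copies (0.341% of windows; a copy with T in place of N is the hexamer itself), the glucocorticoid response element, GNACA and TGTNC with 3 bases between them (0.39%), the E-box CACGTG bound by clock activators (6.04%), the D-box TTATGTAA or TTACGTAA bound by DBP and its relatives (0.925%) and the FoxO site GTAAACA (3.17%) were found in none of the windows of the 7 genes. These letters say nothing about sites farther away.

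Pdk4 was the most abundant of the 8 genes in both genotypes. Pdk4 (ENSMUSG00000019577.6) spans bases 5483351 to 5496309 of chromosome 6, on the minus strand (GRCm38). It stood at 134, 74.5 and 97.1 FPKM in KO replicates 1 to 3, against 32.9, 48.1 and 20.9 FPKM in WT replicates 1 to 3. Every KO heart lay above every WT heart. The mean was 102 ± 29.9 FPKM in KO and 33.9 ± 13.6 FPKM in WT hearts (SD, n = 3 each), a ratio of 3.0. All log2 differences here (KO minus WT, ± SE, 3 hearts per genotype) are of log2(scaled FPKM + 0.5), where FPKM is divided by a library factor. On this scale Pdk4 differed by 1.62 ± 0.33. The difference was 1.37 without KO replicate 1, the highest heart, and 1.35 without WT replicate 3, the lowest.

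Cpt1a encodes the liver-type carnitine palmitoyltransferase of the outer mitochondrial membrane, the step at which long-chain fatty acids are committed to oxidation. Cpt1a (ENSMUSG00000024900.4) spans bases 3322334 to 3385733 of chromosome 19, on the plus strand (GRCm38). Its level was 25.5, 28.5 and 20.7 FPKM in the KO hearts and 19.7, 18.0 and 15.9 FPKM in the WT hearts. The genotypes did not overlap, but the gap was narrow, between KO replicate 3 and WT replicate 1. The log2 difference was 0.48 ± 0.13, and 0.59 without KO replicate 3.

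The uncoupling proteins UCP3, found mainly in muscle and heart, and UCP2, found in many tissues and in macrophages, are carriers of the inner mitochondrial membrane. Their genes are neighbours on chromosome 7, with 6905 bases between the end of Ucp3 and the start of Ucp2. Ucp3 (ENSMUSG00000032942.14) spans bases 100472990 to 100486432 of chromosome 7, on the plus strand (GRCm38). Ucp2 (ENSMUSG00000033685.13) spans bases 100493337 to 100502020 of chromosome 7, on the plus strand (GRCm38). A gene on the opposite strand overlaps each of them, Gm10603 at Ucp3 and Dnajb13 at Ucp2, and both stood below 1 FPKM in every heart. Ucp3 stood at 16.9, 9.63 and 11.9 FPKM in the KO hearts, against 3.41, 5.50 and 3.25 FPKM in the WT hearts. KO replicate 1 was the highest and KO replicate 2 the lowest of the KO hearts, as for Pdk4, and WT replicate 2 was the highest WT heart for both genes. Ucp3 averaged 12.8 ± 3.72 FPKM in KO and 4.05 ± 1.25 FPKM in WT hearts (SD, n = 3 each; ratio 3.16, log2 difference 1.56 ± 0.28). Ucp2 stood at 18.1, 19.0 and 13.1 FPKM in the KO hearts, against 10.7, 8.58 and 8.01 FPKM in the WT hearts. Here too the genotypes did not overlap, while the order of the hearts was another one, with KO replicate 2 the highest and WT replicate 2 in the middle of its group. The log2 difference of Ucp2 was 0.85 ± 0.16, and 1.00 without KO replicate 3. Ucp1, the uncoupling protein gene of brown fat, was listed at 0 in all 6 hearts.

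Acot1, the gene of a cytosolic thioesterase that splits acyl-CoA into fatty acid and coenzyme A, was the least abundant of the 8. It stood at 4.08, 1.51 and 2.68 FPKM in the KO hearts and at 1.47, 1.57 and 1.70 FPKM in the WT hearts. KO replicate 2 fell among the WT hearts, so the genotypes overlapped. Its log2 difference was 0.58 ± 0.31, but 0.27 without KO replicate 1 and 0.92 without KO replicate 2. These levels rest on roughly 23 to 75 fragments per heart if all came from the longest transcript. The longest coding transcripts of Acot1 and Acot2, its mitochondrial relative, align over 1337 bases at 93.8% identity, so reads could be divided between them and the level of Acot1 is uncertain.

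Plin2 and Plin5 encode coat proteins of lipid droplets; PLIN5, abundant in oxidative tissue, also tethers droplets to mitochondria. Plin2 stood at 13.8, 13.1 and 11.6 FPKM in the KO hearts and at 13.5, 10.2 and 8.60 FPKM in the WT hearts. Plin5 stood at 25.7, 12.9 and 21.7 FPKM in the KO hearts and at 18.6, 17.0 and 15.5 FPKM in the WT hearts. The genotypes overlapped for both genes, and for Plin5 the KO hearts held both the highest and the lowest of the 6 values. The log2 difference was 0.27 ± 0.15 for Plin2, and 0.17 without WT replicate 3. For Plin5 it was 0.19 ± 0.27, and it changed sign without KO replicate 1 (-0.04) and reached 0.52 without KO replicate 2.

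Angptl4 encodes a secreted inhibitor of lipoprotein lipase that limits the release of fatty acids from circulating triglyceride. It stood at 8.10, 6.17 and 4.86 FPKM in the KO hearts, against 3.02, 5.58 and 1.37 FPKM in the WT hearts. WT replicate 2 lay above KO replicate 3, so the genotypes overlapped. The log2 difference was 1.00 ± 0.40, ranging from 0.59 without WT replicate 3 to 1.42 without WT replicate 2. The coefficient of variation of Angptl4 was 25.5% in KO and 63.8% in WT hearts, that of Pdk4 29.4% in KO and 40.1% in WT hearts, and that of Acot1 46.6% in KO and 7.25% in WT hearts.

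**Figure D1:**
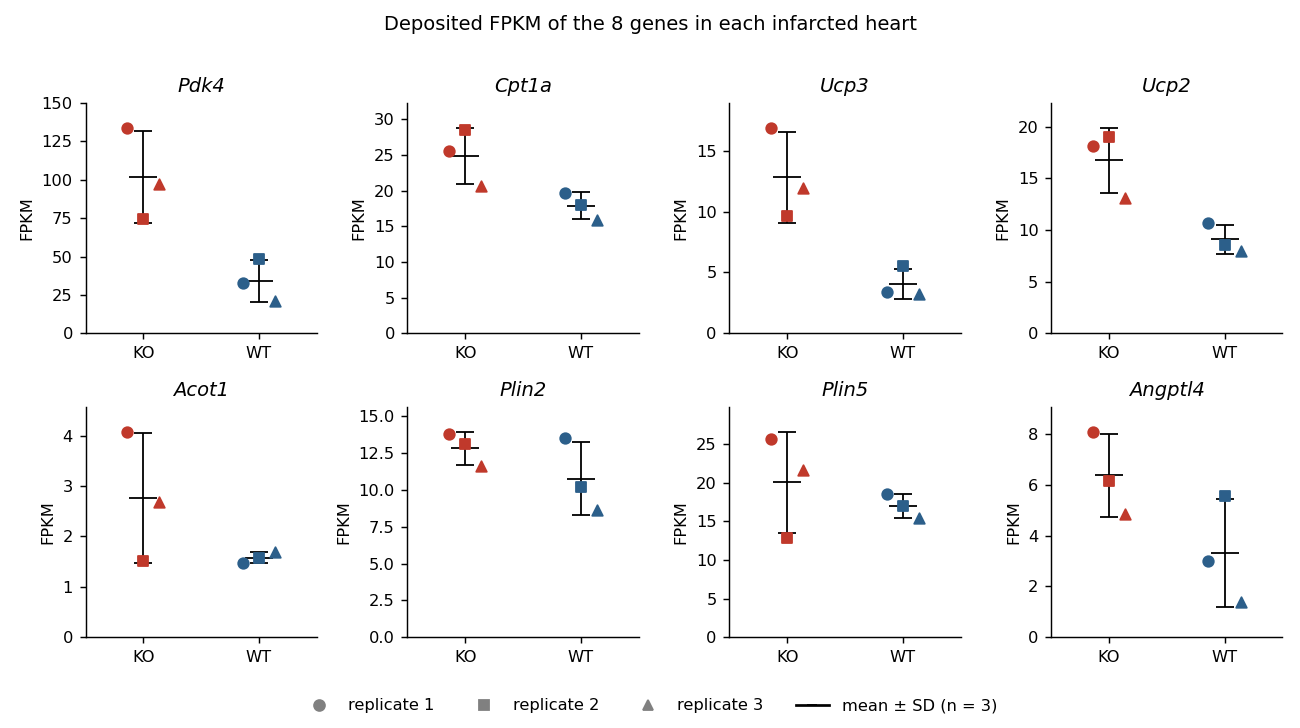
Deposited FPKM (vertical axis, linear from 0) of the 8 genes in each KO (red, left) and WT (blue, right) heart, with one symbol per replicate number and the mean ± SD (n = 3) in black. The KO hearts lie wholly above the WT hearts for Pdk4, Cpt1a, Ucp3 and Ucp2 and overlap them for Acot1, Plin2, Plin5 and Angptl4.

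All 8 genes passed the filter on low values and had a higher mean in KO hearts; the log2 difference was above 0 in 49.2% of the 14656 tested genes. The KO hearts lay above the WT hearts without overlap in 4 of them, Pdk4, Ucp3, Ucp2 and Cpt1a, which held on the deposited and on the scaled values, while 5.29% of tested genes did so and 7.5% had all KO hearts below all WT hearts. None of the 8 passed the limma test across all genes at an adjusted p under 0.05, under which 0.375% of tested genes were called, and 5 had an unadjusted limma p under 0.05, as did 8.47% of tested genes. No alternative processing brought any of the 8 past that threshold. Without KO replicate 3 the log2 differences were 1.62 for Pdk4, 1.58 for Ucp3, 1.15 for Angptl4, 1.00 for Ucp2, 0.59 for Cpt1a, 0.55 for Acot1, 0.33 for Plin2 and 0.10 for Plin5. With all 6 hearts, the median log2 difference of the 8 was 0.72, beside -0.004 over all tested genes. Since the 8 were chosen with this contrast known, nothing is read from these counts. The order of mean levels was Pdk4 (102 FPKM), Cpt1a (24.9), Plin5 (20.1), Ucp2 (16.8), Ucp3 and Plin2 (12.8 each), Angptl4 (6.38) and Acot1 (2.76) in KO hearts. In WT hearts it was Pdk4 (33.9 FPKM), Cpt1a (17.8), Plin5 (17.0), Plin2 (10.8), Ucp2 (9.09), Ucp3 (4.05), Angptl4 (3.32) and Acot1 (1.58). From Cpt1a to Plin2 in KO hearts, each pair of neighbours in that order had overlapping values between hearts. In WT hearts so did Cpt1a and Plin5, Plin2 and Ucp2, Ucp3 and Angptl4, and Angptl4 and Acot1.

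The share of each gene within its family was set side by side per heart. Pdk4 made up 57.7%, 48.3% and 52.7% of the summed FPKM of the 4 pyruvate dehydrogenase kinase genes in the KO hearts, against 27.7%, 30.2% and 15.3% in the WT hearts. Pdk2, the most abundant kinase gene in WT hearts, made up 38.3 ± 3.79% in KO and 62.0 ± 8.94% in WT hearts (SD, n = 3 each). Pdk4 thus exceeded Pdk2 in each KO heart and lay below it in each WT heart. The other 3 kinase genes were not called (log2 differences -0.24 ± 0.17 for Pdk1, -0.23 ± 0.22 for Pdk2 and 0.30 ± 0.33 for Pdk3, limma adjusted p = 0.78, 0.85 and 0.86). With a heart left out these differences ranged from -0.35 to -0.07 for Pdk1, from -0.45 to -0.08 for Pdk2 and from 0.08 to 0.62 for Pdk3.

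Cpt1a made up 26.9%, 33.9% and 20.6% of the FPKM of the 2 heart CPT1 genes, Cpt1a and the muscle-type Cpt1b, in the KO hearts, against 22.4%, 19.7% and 17.0% in the WT hearts. The genotypes overlapped in this share. Cpt1b, the main form in cardiac muscle, stood at 68.3 ± 12.1 FPKM in KO and 73.0 ± 4.71 FPKM in WT hearts (SD, n = 3 each; limma adjusted p = 0.93). KO replicate 2, with the highest Cpt1a share, had the lowest Cpt1b level (55.7 FPKM) and the lowest summed cardiomyocyte markers; the part of this in the share was not tested.

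Ucp3 was 43.1 ± 8.28% of the summed FPKM of Ucp2 and Ucp3 in KO and 30.7 ± 7.58% in WT hearts (SD, n = 3 each), and the genotypes overlapped. Acot1 was 13.7 ± 2.55% of Acot1 plus Acot2 in KO and 10.2 ± 0.28% in WT hearts without overlap. The lowest KO heart was at 11.0% and the highest WT heart at 10.4%. As reads could be divided between Acot1 and Acot2, and few fragments came from Acot1, this share is uncertain too. Of the 5 perilipin genes, Plin3, a coat protein gene of wide expression, held the largest share in every heart, 43.0 ± 4.78% in KO and 56.7 ± 3.73% in WT hearts. Plin3 stood at 39.2, 36.4 and 34.7 FPKM in the KO hearts, against 50.3, 55.6 and 54.9 FPKM in the WT hearts, so it was lower in each KO heart without passing the test (log2 difference -0.53 ± 0.14, limma adjusted p = 0.27). Plin4 differed by 0.33 ± 0.22 (limma adjusted p = 0.77), and Plin1, the coat of fat cell droplets, stood below 1 FPKM in every heart.

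**Figure D2:**
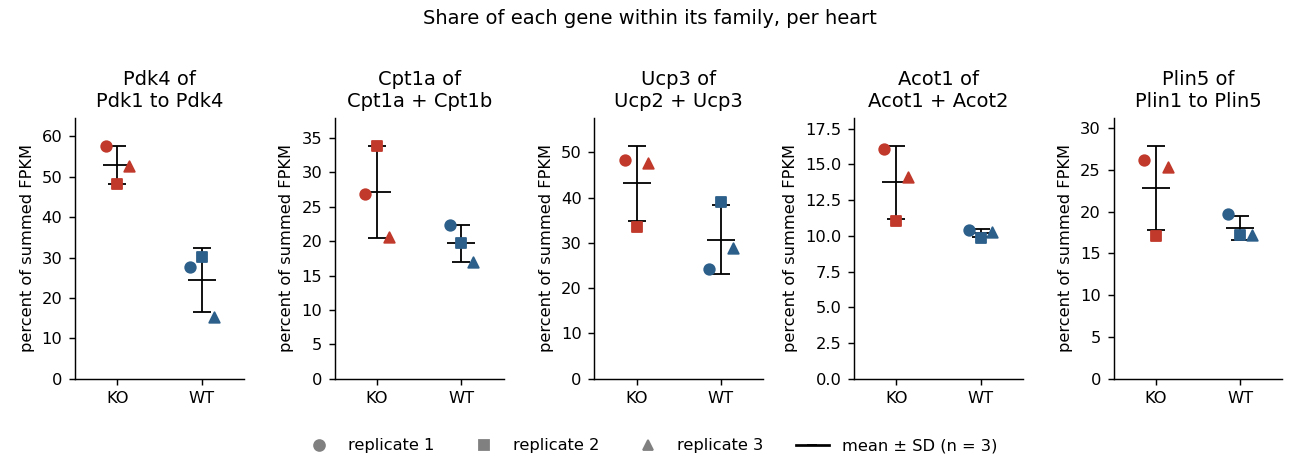
Percent of the summed FPKM of its family (vertical axis, linear from 0) that Pdk4, Cpt1a, Ucp3, Acot1 and Plin5 made up in each KO (red, left) and WT (blue, right) heart, with the mean ± SD (n = 3) in black. Pdk4 lies between 48.3% and 57.7% in the KO hearts and between 15.3% and 30.2% in the WT hearts.

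No gene compared was nearer to Pdk4 than Ucp3. Nearness was measured as the root mean square difference over the 6 hearts between log2 values centred on each gene's own mean, among 11343 protein-coding genes with a mean of at least 1 FPKM; this measure reads the genotype difference together with the spread within genotypes. Ucp3 stood at 0.183. The next were Wee1, a cell cycle kinase gene (0.349), Tcap, which encodes telethonin of the sarcomere Z-disc (0.372), the clock repressor gene Per2 (0.386) and Tef, a gene of the PAR bZIP factors driven by the clock (0.399). Among the other 6 of the 8 genes Angptl4 ranked 7 (0.406), Ucp2 73, Acot1 127, Cpt1a 274, Plin2 637 and Plin5 701. Since the 8 were chosen with the genotype difference known, these ranks, like that of Ucp3, are only a description. Of the nearest genes, Wee1 rose to 10.0 ± 0.404 FPKM in KO hearts, against 2.64 ± 0.559 FPKM in WT hearts (SD, n = 3 each; log2 difference 1.77 ± 0.15, limma adjusted p = 0.0057). That call ended without KO replicate 1 (limma adjusted p = 0.054). Tcap stood at 1464, 1062 and 1387 FPKM in the KO hearts and at 468, 537 and 508 FPKM in the WT hearts (log2 difference 1.37 ± 0.22, limma adjusted p = 0.068). In the KO hearts Tcap shared the order of Pdk4, with replicate 1 the highest and replicate 2 the lowest. In the WT hearts the order differed, since replicate 2 was the highest for both but Tcap was lowest in replicate 1 and Pdk4 in replicate 3. These genes were picked for their KO against WT pattern, so their tests give no support to the likeness.

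**Figure D3:**
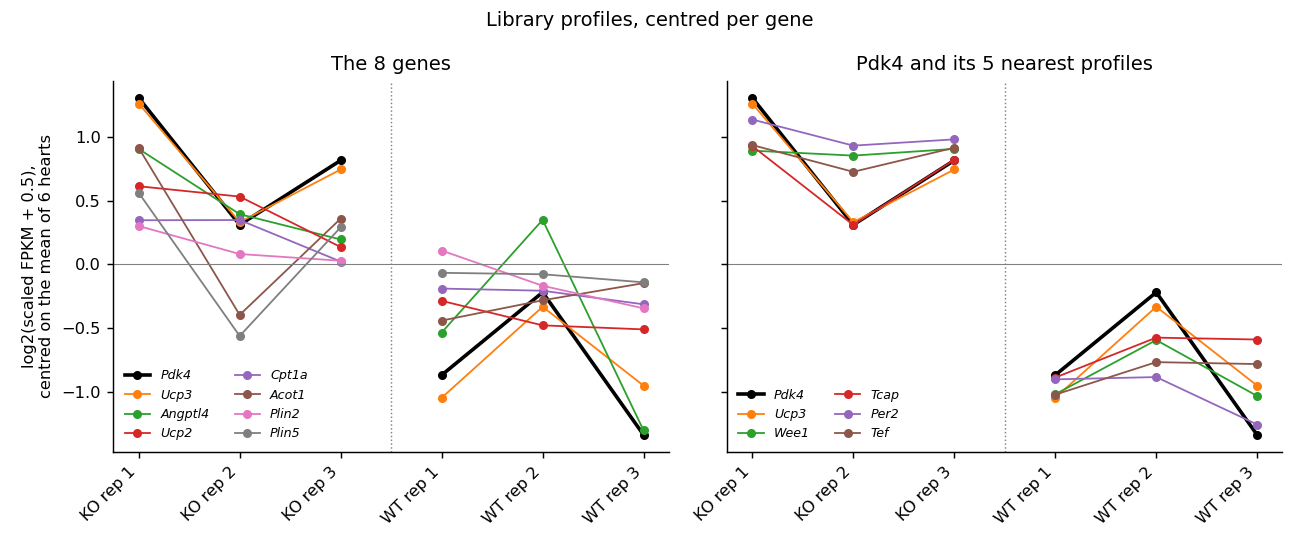
Log2(scaled FPKM + 0.5) centred on each gene's mean over the 6 hearts (vertical axis), for the 8 genes (left panel) and for Pdk4 with its 5 nearest profiles (right panel); lines only join the points of a gene within a genotype, since replicates have no order. Pdk4 and Ucp3 run close together in all 6 hearts, while Per2 and Tef vary less among the KO hearts than Pdk4 does.

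The receptors that drive these genes were measured from a list of 18 PPAR receptors, partners and coregulators. None of the 18 was called by limma, 2 had an unadjusted p under 0.05, and the median log2 difference was -0.03. Over all tested genes 8.47% had an unadjusted limma p under 0.05, a share that stands beside this count and those of the lists below. Ppara, the gene of the main fatty acid sensor of the heart, stood at 2.88 ± 1.35 FPKM in KO and 3.15 ± 0.565 FPKM in WT hearts. Ppard stood at 7.31 ± 0.472 FPKM in KO and 6.86 ± 0.887 FPKM in WT hearts, and Pparg at 5.70 ± 0.856 and 5.69 ± 0.543 FPKM in KO and WT hearts (SD, n = 3 each; limma adjusted p = 0.93, 0.88 and 1.0 for the 3 receptor genes in this order). The genotypes overlapped for all 3. Rxrg, the RXR gene of muscle, stood at 7.96, 7.26 and 10.6 FPKM in the KO hearts, against 13.3, 15.2 and 13.0 FPKM in the WT hearts, and Lpin1, whose product is a lipid phosphatase and a coactivator of PPARα, at 7.93 ± 0.843 FPKM in KO and 11.9 ± 0.764 FPKM in WT hearts. Both were lower in each KO heart and neither was called (limma adjusted p = 0.29 and 0.21). Rxra differed by -0.01 ± 0.30 and Ppargc1a, the gene of the coactivator PGC-1α, by -0.23 ± 0.30 (limma adjusted p = 1.0 and 0.89). Nrip1, the gene of a corepressor of nuclear receptors, differed by 0.41 ± 0.18 (limma adjusted p = 0.60).

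Other targets of PPARs were counted from a list of 32, of which 28 passed the filter. Of these 28 genes, among them the enzymes of fatty acid oxidation, none was called by limma, 3 had an unadjusted p under 0.05, 10 had a log2 difference above 0 and 18 below it, and the median was -0.04. Among the members of smallest p were Fabp4, a fatty acid binding protein gene of capillary endothelium and fat, and Scd2, a fatty acid desaturase gene. Fabp4 stood at 219, 158 and 189 FPKM in the KO hearts, against 114, 133 and 120 FPKM in the WT hearts (log2 difference 0.62 ± 0.19, limma adjusted p = 0.37). Scd2 differed by -0.60 ± 0.21 (limma adjusted p = 0.47).

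The lists nearest to single members gave no call by limma either. Of 13 genes of pyruvate dehydrogenase, its other kinases and its phosphatases, 0 had an unadjusted p under 0.05, and Pdpr, a regulator of the phosphatase, had the smallest p beside Pdk1 and Pdk2 (log2 difference -0.14 ± 0.13, limma adjusted p = 0.85). Of 10 genes of the carnitine shuttle and malonyl-CoA, 0 had an unadjusted p under 0.05, and the log2 differences of smallest p were -0.26 ± 0.14 for Crot, a peroxisomal acyltransferase gene, -0.29 ± 0.17 for Acaca, which makes malonyl-CoA, and 0.37 ± 0.22 for the carnitine transporter gene Slc22a5 (limma adjusted p = 0.70, 0.73 and 0.74).

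Of 13 tested thioesterase and acyl-CoA synthetase genes 2 had an unadjusted limma p under 0.05 and none was called. Acsl1, the main synthetase gene that activates long-chain fatty acids in the heart, stood at 60.2, 44.8 and 63.9 FPKM in the KO hearts and at 26.7, 29.6 and 41.2 FPKM in the WT hearts (log2 difference 0.80 ± 0.25, limma adjusted p = 0.38). Its genotypes did not overlap in the deposited values but did after scaling. Acot9 differed by -0.32 ± 0.13 and Acot11 by 0.28 ± 0.16 (limma adjusted p = 0.53 and 0.71), and Acot2, the relative of Acot1, by 0.23 ± 0.24 (limma adjusted p = 0.85).

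Around Angptl4, the list of lipoprotein lipase and related genes had 9 tested members, of which none was called by limma and 3 had an unadjusted p under 0.05. Lpl, the gene of the lipase that ANGPTL4 inhibits, stood at 300 ± 62.8 FPKM in KO and 325 ± 44.8 FPKM in WT hearts (SD, n = 3 each; limma adjusted p = 0.94). Gpihbp1, which encodes the anchor of the lipase on capillaries, stood at 40.7, 31.8 and 37.2 FPKM in the KO hearts, against 24.8, 26.2 and 26.3 FPKM in the WT hearts (log2 difference 0.50 ± 0.16, limma adjusted p = 0.39). Each KO heart lay above each WT heart for Gpihbp1, as for Angptl2 (log2 difference 0.58 ± 0.16) and Angptl7 (1.38 ± 0.36), which encode other angiopoietin-like proteins (limma adjusted p = 0.29 and 0.28). Cd36, the fatty acid transporter gene, differed by 0.12 ± 0.20 (limma adjusted p = 0.92).

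Beside Plin2 and Plin5, none of 16 tested genes of lipid droplet coats and lipolysis was called by limma, and 2 had an unadjusted p under 0.05, Plin3 and Cidea. Cidea, whose product fuses lipid droplets, stood at 19.8 ± 2.56 FPKM in KO and 14.1 ± 1.22 FPKM in WT hearts (SD, n = 3 each; log2 difference 0.48 ± 0.17, limma adjusted p = 0.48). G0s2, an inhibitor gene of adipose triglyceride lipase, differed by 0.35 ± 0.21 (limma adjusted p = 0.73). Among 5 tested carriers related to the uncoupling proteins none was called by limma and 1 had an unadjusted p under 0.05. That gene was Slc25a30, at 5.38, 6.32 and 5.28 FPKM in the KO hearts and 4.38, 3.34 and 2.59 FPKM in the WT hearts (log2 difference 0.68 ± 0.15, limma adjusted p = 0.19). Slc25a14 and Slc25a27 differed by 0.32 ± 0.30 and -0.19 ± 0.20 (limma adjusted p = 0.85 for both).

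Fasting also acts through FoxO factors and glucocorticoids. Of 22 tested FoxO and fasting response genes, 1 rose, Depp1, a target of FoxO factors, and 5 had an unadjusted limma p under 0.05. Depp1 stood at 64.5 ± 19.4 FPKM in KO and 14.3 ± 3.25 FPKM in WT hearts (SD, n = 3 each; log2 difference 2.12 ± 0.26, limma adjusted p = 0.027), and the call held without KO replicate 3 but ended without any other heart (limma adjusted p between 0.062 and 0.10). Ddit4, an inhibitor gene of mTORC1 induced by fasting and stress, stood at 54.8, 60.7 and 29.9 FPKM in the KO hearts, against 16.0, 17.5 and 10.7 FPKM in the WT hearts (log2 difference 1.66 ± 0.27, limma adjusted p = 0.073), and was called without KO replicate 3 (limma adjusted p = 0.032). Klf15, a regulator gene of cardiac lipid use that glucocorticoids induce, differed by 0.33 ± 0.24, and Foxo1 by -0.01 ± 0.15 (limma adjusted p = 0.79 and 1.0).

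Of 17 tested glucocorticoid response genes, counted without Angptl4, 13 had a log2 difference above 0 and 4 below it, with a median of 0.96. All KO hearts lay above all WT hearts in 11 of the 17 and below them in 3, beside 5.29% and 7.5% of all tested genes. By limma 8 were called higher and none lower in KO hearts, against 0.273% of all tested genes called higher. They included Tsc22d3, the gene of GILZ, a mediator of glucocorticoid action (67.5 ± 13.5 FPKM in KO and 13.1 ± 1.08 FPKM in WT hearts), the transcription factor gene Cebpd (33.4 ± 5.15 FPKM in KO and 10.3 ± 1.05 FPKM in WT hearts) and the kinase gene Sgk1 (26.4 ± 5.39 FPKM in KO and 10.4 ± 0.526 FPKM in WT hearts; SD, n = 3 each). Their log2 differences were 2.31 ± 0.16, 1.66 ± 0.14 and 1.29 ± 0.16 (limma adjusted p = 0.0026, 0.0051 and 0.029). The others that rose were the metallothionein gene Mt2 (1.77 ± 0.18), the phosphatase gene Dusp1 (1.46 ± 0.20), Errfi1, the gene of a feedback inhibitor of the EGF receptor (1.40 ± 0.20), Klf9 (0.96 ± 0.13) and the clock repressor gene Per1 (2.60 ± 0.24), with limma adjusted p of 0.015, 0.035, 0.049, 0.035 and 0.0089. The count called higher was 2, 4 and 7 without KO replicates 1, 2 and 3, and 4, 3 and 3 without WT replicates 1, 2 and 3. It was 3 without a filter, 5 without the mean-variance trend and 4 with the replicate block. Tsc22d3 and Cebpd kept their calls under all 15 alternatives.

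On the clock list 20 genes were tested, of which 8 rose and 2 fell. Of all tested genes 0.273% were called higher and 0.102% lower in KO hearts. Per1 is on both the glucocorticoid and the clock list and is counted in each. Dbp, an output gene of the clock that encodes a PAR bZIP factor, stood at 35.3 ± 6.09 FPKM in KO and 1.98 ± 0.299 FPKM in WT hearts, and Arntl, which encodes the activator BMAL1, at 0.683 ± 0.28 FPKM in KO and 7.90 ± 1.72 FPKM in WT hearts (SD, n = 3 each; log2 differences 3.86 ± 0.16 and -2.83 ± 0.19, limma adjusted p = 0.00041 and 0.0026). Beside Dbp, the genes Tef, Per1, Per2, Per3, Nr1d2, Ciart and Bhlhe40 rose (log2 differences from 0.96 to 2.60), and beside Arntl, Npas2 fell (-2.07 ± 0.15). The count of raised clock genes was 5 without KO replicate 1 and 6 or 7 without any other heart; the call of Bhlhe40 ended without any one heart, that of Ciart without WT replicate 2 or any KO heart, and that of Per1 without KO replicate 1. Time of day and feeding are known to move Pdk4 and Ucp3 as well as these genes, and since the labels give neither, a difference in the hour of harvest or in food intake cannot be told apart from genotype.

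Over all lists fixed around the 8 genes, 169 genes were tested and 16 rose and 2 fell, beside 40 raised and 15 lowered of all 14656 tested genes. All but 1 of the 18 belonged to the glucocorticoid and clock lists, which together held 36 tested genes. Among the 133 tested genes of the other lists 1 rose, Depp1, and the median log2 difference was -0.01. The 18 became 9 without KO replicate 1, 11 without KO replicate 2, 10 without WT replicate 2, 11 without WT replicate 3 and 10 without a filter on low values. The count over all genes moved from 55 to 12, 26 and 36 without KO replicates 1, 2 and 3, and to 26, 16 and 26 without WT replicates 1, 2 and 3. These lists too were written with earlier results of these hearts known.

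**Figure D4:**
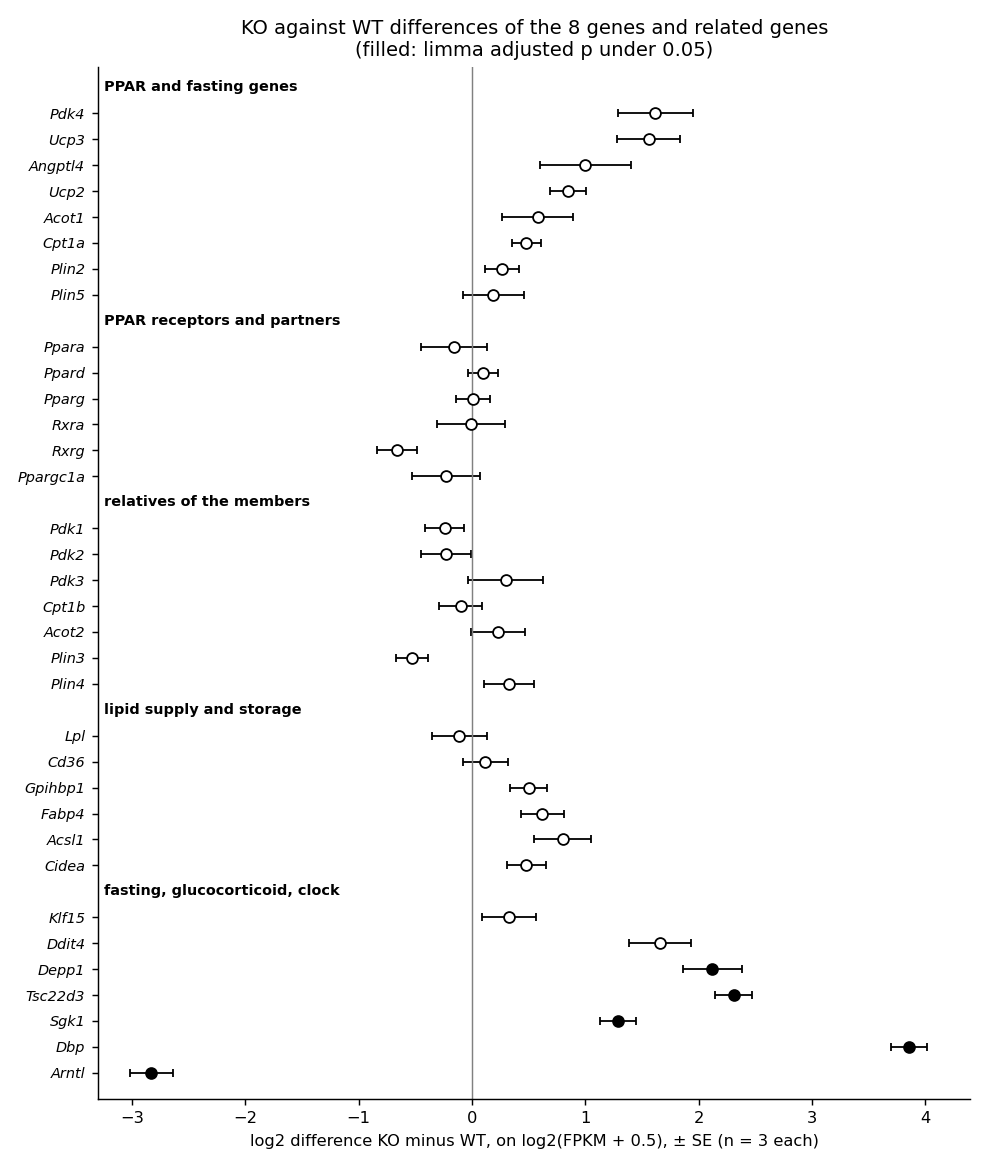
Log2 difference KO minus WT on the scale of log2(scaled FPKM + 0.5) (horizontal axis, ± SE, n = 3 per genotype) of the 8 genes, of PPAR receptors and partners, of relatives of the 8, of lipid supply and storage genes, and of fasting, glucocorticoid and clock genes. Filled points passed limma at an adjusted p under 0.05: Depp1, Tsc22d3, Sgk1, Dbp and Arntl; the 8 genes themselves have open points, from 0.19 for Plin5 to 1.62 for Pdk4.

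RNA of other tissues stood apart in single hearts, and its levels are given here beside values of the 8 genes. Hepatocyte markers summed to 1.16, 0.991 and 1.55 FPKM in the KO hearts and to 1.14, 0.465 and 48.8 FPKM in the WT hearts, and in WT replicate 3 albumin (Alb) was at 37.3 FPKM. That heart had the lowest value of the 6 in 6 of the 8 genes, among them Pdk4, Cpt1a and Angptl4; without it the log2 difference was 0.44 for Cpt1a, 0.59 for Angptl4 and 0.17 for Plin2. Skeletal muscle markers summed to 15.5, 10.8 and 7.37 FPKM in the KO hearts and to 38.1, 7.70 and 6.61 FPKM in the WT hearts. The sum was highest in WT replicate 1, and without that heart Ucp3 differed by 1.42. Among the KO hearts it was highest in replicate 1, which also had the highest Ucp3, and without that heart Ucp3 differed by 1.32. Mybpc2 made up most of the sum in KO replicates 2 and 3 (7.75 and 6.29 FPKM) and was lowest among KO hearts in replicate 1 (4.02 FPKM). Each other skeletal muscle marker was highest among KO hearts in replicate 1, as Tnnt3 at 2.95, 0.556 and 0.092 FPKM. The 8 adipocyte markers summed to 226, 163 and 197 FPKM in the KO hearts and to 124, 164 and 121 FPKM in the WT hearts, most of it Fabp4. Of the defining markers, Adipoq was at 0.411, 0.976 and 1.79 FPKM in the KO hearts and at 2.0, 3.03 and 0.14 FPKM in the WT hearts. WT replicate 2, with the highest Adipoq, was the WT heart with the highest Pdk4, Ucp3 and Angptl4. Among the KO hearts Adipoq went the other way, since replicate 1 had the lowest Adipoq and the highest Pdk4, Ucp3 and Angptl4. Cidec was also lowest in KO replicate 1 (0.153 FPKM, against 1.05 and 1.54 FPKM in KO replicates 2 and 3). Cfd, Retn and Fabp4 were instead highest in that heart, Cfd at 5.84 FPKM against 2.52 and 4.42 FPKM, so the adipocyte markers disagreed among the KO hearts. Ucp1 was at 0 in all 6 hearts. Macrophage markers, which bear on Ucp2 and Plin2, summed to 351, 485 and 340 FPKM in the KO hearts and to 543, 416 and 361 FPKM in the WT hearts, with 7 of 8 log2 differences below 0 and none called by limma. For Ucp2 the order of the hearts within each genotype was that of these sums. For Plin2 it was so in the WT hearts but not in the KO hearts. The part of these tissues in the values of the 8 genes was not tested.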

How the data were processed

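The authors deposited FPKM per gene (the table is titled as counts, but values above 0 are almost never whole). Per the submitters' processing notes, Bowtie 0.12.2 and the builds mm8 and mm9 were used; what counted the fragments, on which annotation and with which strand setting, is not given in the sources used here. The labels describe TruSeq libraries from 1 µg of total RNA. Of 52550 rows, 52403 matched GENCODE M21 (GRCm38) by identifier, which gave the symbols; transcripts were aligned with blastn (BLAST+ 2.17.0). No read was realigned.

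The 14656 genes that reached an FPKM of 0.5 in 3 libraries were tested. Libraries were scaled by unweighted trimmed means of log ratios (trims 0.3 and 0.05), with factors between 0.949 and 1.07. Log2(FPKM / factor + 0.5) was fitted with limma 3.58.1 in R 4.3.3 (genotype only, mean-variance trend, two-sided, Benjamini-Hochberg over all tested genes, called at an adjusted p under 0.05), after a test on simulated data. The log2 scale understates changes of low genes. Depth is only approximate, so no counting interval is given. Nothing in the labels gives litters or batches, so p-values reflect only how these hearts vary.

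The 8 genes and all lists were chosen with earlier results of these data known. Named are the 8, every list gene called, the 3 of smallest p per list, 21 genes fixed in any case, and the 5 nearest to Pdk4. One gene that this rule names is not reported here. Alternatives covered scaling, filter, pseudocount, variance trend, replicate block and each library left out.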

Additional observations from a re-analysis of the deposited data

How the results depend on the processing

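Under 15 alternatives none of the 8 genes was called, and 120 of 120 of their log2 differences moved by less than the spread between replicates. That limit is no measure of stability, since leaving out 1 of 3 hearts can hardly move a difference past it. The variance trend and the replicate block leave the differences themselves unchanged. With a heart left out, the log2 difference of Acot1 ranged from 0.27 to 0.92. The count of called genes was 55 and ranged from 12 to 36 with a library left out; the list genes called were 18 and ranged from 9 to 17. Without a filter on low values the counts were 20 and 10, with more genes tested (25162). Of 19 called genes named outside the 8, 9 were called under every alternative with a value (Arntl, Cebpd, Dbp, Npas2, Nr1d2, Per2, Per3, Tef and Tsc22d3). With a library left out, the log2 differences of 9 uncalled genes crossed 0, Plin5 among the 8 (-0.04 to 0.52) and, outside them, Cd36 (0.00 to 0.30), Cpt1b (-0.23 to 0.09), Foxo1 (-0.10 to 0.10), Lpl (-0.28 to 0.11), Ppara (-0.48 to 0.01), Pparg (-0.11 to 0.11), Ppargc1a (-0.51 to 0.01) and Rxra (-0.25 to 0.27); that of Pparg was 0.00 without scaling. The cause was not tested. The labels tie same-numbered hearts only by their number, and whether they shared a batch is not known. Their deviations from the genotype means correlated at 0.008, -0.036 and 0.18 across genes. For KO and WT hearts of different numbers the values ranged from -0.202 to 0.193. With the replicate number as a block 42 genes were called, 30 of them among the 55, and 13 list genes; none of the 8 was called. Depth limits Acot1 and Angptl4 most, at roughly 23 and 24 fragments in WT replicate 3.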
